A study of Drosophila melanogaster with 3 samples.

Results

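The genes described here are 9 named heat shock and chaperone genes of Drosophila melanogaster, namely Hsp22, Hsp23, Hsp26, Hsp27, Hsp67Ba, Hsp67Bc, Hsp83, Hsc70-4 and Hsf, out of 17896 annotated genes, 13945 of them protein-coding. They were chosen by name, and a binding peak was counted for a gene when its summit fell in the gene body or within 2 kb to either side. The peaks are sites of the protein of CG4820, found by chromatin immunoprecipitation and sequencing (ChIP-seq) with an antibody against green fluorescent protein (GFP). The 3 biological replicates form 1 group: whole embryos aged 0 to 16 h, both sexes pooled, from a transgenic line that stably expresses CG4820 with GFP at its C-terminal end. All of them come from this 1 line, and the labels do not say whether untagged CG4820 remains or what drives the transgene. No heat shock, mutant or untagged group is among the samples, so every value is of tagged embryos with no treatment named, and levels of mRNA or protein of these genes were not measured. Whole embryos mix all tissues and 16 h of development, so sites held in a few cells and sites held weakly in many cannot be told apart. Read depth is unknown, because the files list peaks and not reads.

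Small heat shock proteins share an alpha-crystallin domain and hold unfolding proteins so that they do not aggregate. HSP70 and HSP90 chaperones then refold client proteins in cycles driven by ATP, also in unstressed cells. On heat stress the transcription factor Hsf forms trimers that bind heat shock elements at the promoters of heat-inducible genes. These elements are inverted repeats of the 5-base unit nGAAn. In flies most small heat shock genes lie in 1 cluster at cytological position 67B and are also active without stress, in part under the moulting hormone ecdysone.

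The upstream sequences of 4 of the genes, and the sequence around a summit inside Hsp83, are printed to show what lies at and near the peaks. Each upstream stretch is the 250 bases before the first transcription start site (TSS), 5′ to 3′ on the strand of the gene, from the RefSeq genome of Release 6, the assembly also called dm6. Capitals mark a pair of inverted units of the heat shock element, GAANNTTC or TTCNNGAA, the only words capitalised. Hsp27 (chr3L:9383813-9384062, plus strand) is shown for the strongest peak, with its summit at base 112. Hsp26 (chr3L:9377428-9377677, minus strand) has the summit at base 117, next to a pair. Hsc70-4 (chr3R:15242437-15242686, plus strand) has it at base 64. Hsp23 (chr3L:9381632-9381881, plus strand) holds heat shock element pairs and no optimal peak. The Hsp83 stretch (chr3L:3194217-3194317, plus strand) covers 50 bases to each side of a summit in the intron.
Hsp27 upstream: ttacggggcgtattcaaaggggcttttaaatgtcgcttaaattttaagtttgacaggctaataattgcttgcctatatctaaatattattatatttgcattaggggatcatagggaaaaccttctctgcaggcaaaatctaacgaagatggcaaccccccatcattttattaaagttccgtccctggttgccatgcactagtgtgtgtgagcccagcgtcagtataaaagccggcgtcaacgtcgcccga
Hsp26 upstream: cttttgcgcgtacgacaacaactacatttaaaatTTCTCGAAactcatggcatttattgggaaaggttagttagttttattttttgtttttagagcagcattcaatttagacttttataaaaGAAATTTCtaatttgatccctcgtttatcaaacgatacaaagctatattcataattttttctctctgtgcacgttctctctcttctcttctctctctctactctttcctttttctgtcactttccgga
Hsc70-4 upstream: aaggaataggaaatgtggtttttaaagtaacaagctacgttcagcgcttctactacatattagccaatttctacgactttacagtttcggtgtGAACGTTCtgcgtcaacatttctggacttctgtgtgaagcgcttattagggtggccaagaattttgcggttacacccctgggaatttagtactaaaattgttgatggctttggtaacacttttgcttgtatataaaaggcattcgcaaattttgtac
Hsp23 upstream: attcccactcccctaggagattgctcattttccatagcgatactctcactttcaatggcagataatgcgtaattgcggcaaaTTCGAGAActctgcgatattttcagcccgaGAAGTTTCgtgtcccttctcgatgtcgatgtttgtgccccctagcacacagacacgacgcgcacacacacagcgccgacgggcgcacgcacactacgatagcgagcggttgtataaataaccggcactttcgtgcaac
Hsp83 intron: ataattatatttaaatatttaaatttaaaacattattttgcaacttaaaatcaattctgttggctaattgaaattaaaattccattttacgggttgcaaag

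CG4820 peaks lay at the promoters of 5 of the 9 genes, Hsp22, Hsp26, Hsp27, Hsp83 and Hsc70-4, and inside an intron of Hsp83. Promoter peaks are those with a summit no more than 500 bp from an annotated TSS. Over all protein-coding genes the share with such a peak was 19.9% (2770 of 13945). In the wider window of gene body and 2 kb flanks, 8 of 9 genes had a peak of the optimal list, the authors' list of 4876 reproducible peaks. The share of all protein-coding genes was 35.2%, and 28.8% among the 10020 genes no longer than the longest of the 9. The 8 genes are not 8 separate cases: their windows hold 7 distinct peaks, and 6 of the genes are neighbours. When each summit was given only to the gene with the nearest TSS, the 5 genes with promoter peaks remained. Hsp23, Hsp67Ba and Hsp67Bc were in the count of 8 only through peaks next to a neighbour, and Hsf had no optimal peak. No test was made on these counts, since 9 genes chosen by name and partly side by side are no sample of the genome.

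**Figure D1:**
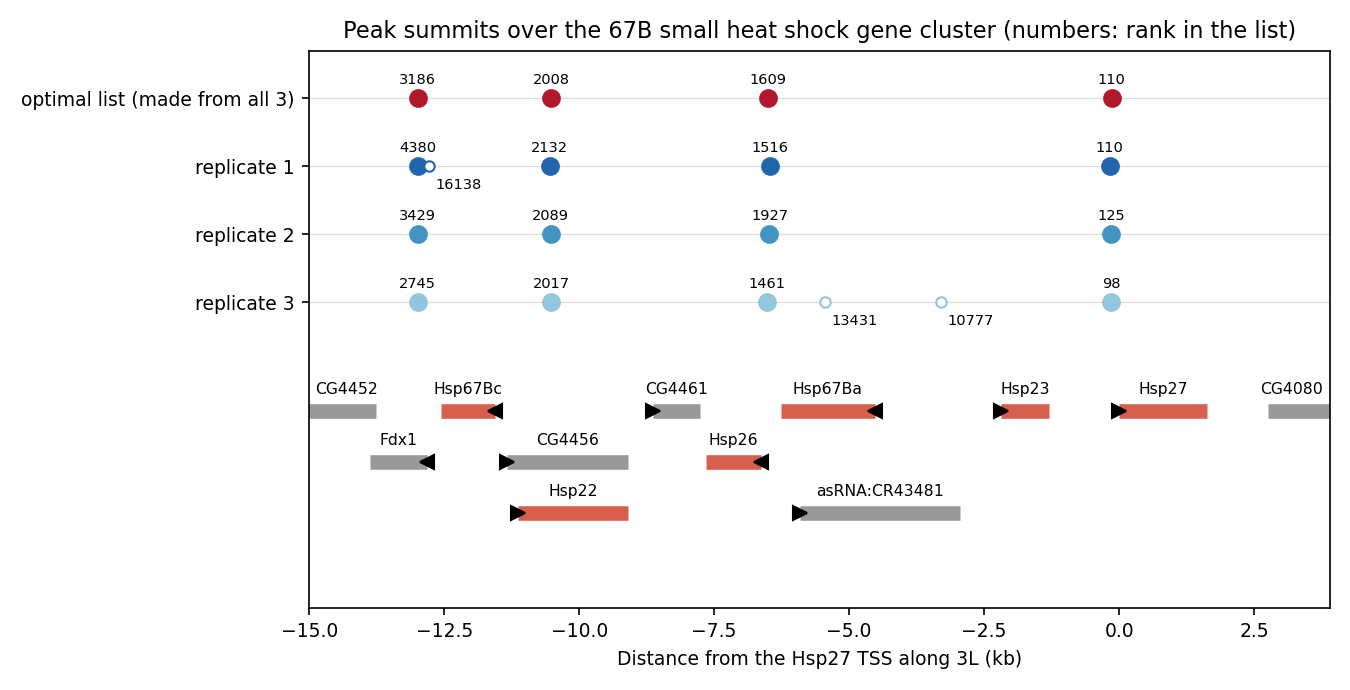
Peak summits across the 67B cluster in the optimal list and in each replicate, by distance from the Hsp27 TSS in kb. Numbers are ranks by signal in the list, filled points are within rank 4876 and small open points beyond it. Red bars are the listed genes and grey bars other genes, with arrowheads at the first TSS. The 4 optimal summits recur in all 3 replicates, by Fdx1, Hsp22, Hsp26 and Hsp27.

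The cluster holds 6 of the 9 genes within 14184 bp of chromosome arm 3L (9371511 to 9385694) and 3 optimal summits. A stretch of that length holds 0.517 optimal summits on average over the 133.9 Mb of arms used, a figure that ignores how genes are spaced. The summits stood at Hsp22, Hsp26 and Hsp27 and skipped Hsp67Bc, Hsp67Ba and Hsp23, which lie between or beside them. Of the 3 genes read leftward, Hsp67Bc, Hsp26 and Hsp67Ba, Hsp26 had a promoter peak. Of the 3 read rightward, Hsp22, Hsp23 and Hsp27, only Hsp23 had none.

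Hsp27 (FBgn0001226, 3L 9384063 to 9385694, plus strand) encodes a small heat shock protein found largely in the nucleus, and its gene is a classic ecdysone target. Its peak (3L 9383750 to 9384062) was the strongest of the set, with the summit at 9383924 in intergenic sequence, 139 bp upstream of the TSS. The signal, which is the authors' own enrichment value, was 922.7 and ranked 110 of 4876, where the median signal of all optimal peaks was 171. Signals were 282.2 in replicate 1, 331.8 in replicate 2 and 302.7 in replicate 3, each on the scale of its own list, so ranks are compared below. The peak ranked 110, 125 and 98 of the 26597, 27004 and 26145 candidate peaks of replicates 1, 2 and 3. It was thus near the top of every list, and as a share of each list its ranks averaged 0.417% ± 0.0441 (SD, n = 3). Replicate summits lay 174, 150 and 150 bp upstream of the TSS, within 24 bp of each other. The 101 bases around the optimal summit were 62.4% A+T, with no heat shock element pair. The nearest pair, GAAGTTTC, was centred 195.5 bp further upstream (9383725 to 9383732), outside the upstream stretch printed above and outside the peak interval.

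Hsp26 (FBgn0001225, 3L 9376418 to 9377427, minus strand) encodes a cytosolic small heat shock protein whose mRNA is also made in ovaries. Its peak (3L 9377353 to 9377768, signal 226.6, rank 1609) had its summit at 9377561, 134 bp upstream of the outer TSS and 186 bp upstream of the inner one, in intergenic sequence. The replicates gave signals of 73.1, 79.7 and 74.7 and ranks of 1516, 1927 and 1461. As a share of each list these ranks averaged 6.14% ± 0.863 (SD, n = 3), with summits up to 49 bp apart. Replicates 1 and 3 placed the peak close together and replicate 2 somewhat lower. The summit window held GAAATTTC centred 9.5 bp from the summit, and 5 heat shock element pairs lay within 300 bp of it. The printed stretch also holds the GAGAG word, a repeat bound by the GAGA factor, 6 times on the strand opposite to the one shown. Its window had 75.2% A+T.

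Hsp22 (FBgn0001223, 3L 9372931 to 9374964, plus strand) encodes a small heat shock protein of mitochondria. It has an outer TSS at 9372931, from which a transcript shared with CG4456 (Hsp67Bb) starts, and an inner one at 9373997. The optimal summit (9373546, interval 9373338 to 9373753) lay between them, 451 bp upstream of the inner TSS and 615 bp downstream of the outer one, in the 5′ UTR of the longer Hsp22 transcript, which the annotation also counts as 3′ UTR of CG4456. Its optimal signal was 195.8 and its rank 2008. Replicate signals of 59.0, 75.5 and 59.7 gave ranks of 2132, 2089 and 2017, on average 7.82% ± 0.168 of the list (SD, n = 3). The replicates differed less in rank here than at any other peak of the set. The SD of log10 rank was 0.0122, and 0.865% of optimal peaks had a smaller one, although the peak was picked out after its values were seen. Replicate summits lay 479, 464 and 452 bp upstream of the inner TSS. The distance of 451 bp is the closest of the set to the promoter limit, and with a limit of 250 bp Hsp22 would not count. The nearest heat shock element pair, GAAACTTC, was 266.5 bp from the summit.

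**Figure D2:**
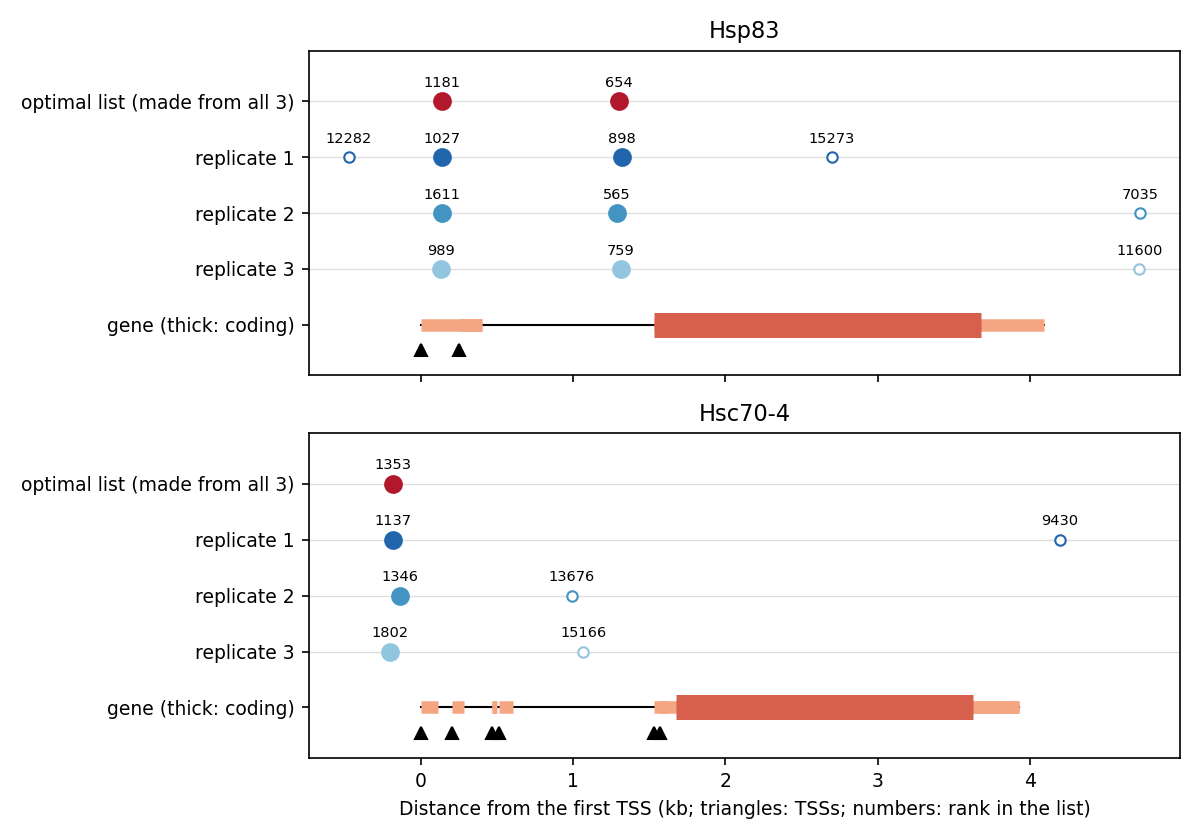
Peak summits over Hsp83 and Hsc70-4 in the optimal list and each replicate, by distance in kb from the first TSS of each gene, with ranks as numbers. Filled points are within rank 4876, thin bars are exons, thick bars coding sequence and triangles TSSs. Hsp83 has a summit by its start and another in the intron before its coding sequence in every replicate, and Hsc70-4 has 1 summit before its first TSS.

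Hsp83 (FBgn0001233, 3L 3192969 to 3197059, plus strand), the fly gene for cytosolic HSP90, carried 2 optimal peaks. The stronger (3194146 to 3194374, signal 377.8, rank 654) had its summit at 3194267, in the intron of 1131 bp that separates the first exon from the coding sequence. That is 1051 bp downstream of the TSS at 3193216, 1298 bp downstream of the TSS at 3192969, and 232 bp before the first coding base. The replicates gave signals of 100.4, 159.9 and 109.7 and ranks of 898, 565 and 759. Replicate 2 placed it highest. As a share of each list the ranks averaged 2.79% ± 0.649 (SD, n = 3), and the summits lay within 31 bp. The window was 80.2% A+T, and 96.0% of optimal windows had less. As the sequence printed above shows, it is rich in A and T and holds no heat shock element pair.

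The weaker Hsp83 peak (3193046 to 3193165, signal 276.4, rank 1181) had its summit at 3193109, 107 bp upstream of the TSS at 3193216 and 140 bp downstream of the other. The base is in the 5′ UTR of the longer transcript. Replicate signals were 92.9, 89.8 and 94.0, with ranks of 1027, 1611 and 989. As a share of each list its ranks averaged 4.54% ± 1.24 (SD, n = 3), with the lowest place in replicate 2, where the intron peak had its highest. The intron peak ranked above the promoter peak in 3 of 3 replicates. Summits of the promoter peak agreed within 11 bp, and its A+T share of 52.5% was the lowest of the set. GAAGTTTC was centred 42.5 bp from the summit, on the side of the TSS at 3193216.

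Hsc70-4 (FBgn0266599, 3R 15242687 to 15246614, plus strand) encodes the main constitutive cytosolic HSP70 of the fly. Its peak (3R 15242292 to 15242707, signal 254.1, rank 1353) had its summit at 15242500, 187 bp upstream of the first of 6 TSSs. It lay 390, 656, 698, 1719 and 1756 bp upstream of the others. Replicate signals of 87.3, 100.1 and 64.9 gave ranks of 1137, 1346 and 1802, on average 5.38% ± 1.35 of the list (SD, n = 3). Replicate 3 placed it lowest, and the summits spread over 66 bp, the widest of the set. GAACGTTC was centred 33.5 bp from the summit. The 250 bases before the TSS at 15243156 hold 4 such pairs, and 3 units in a row among them, but no optimal summit. A weak candidate in the intron beyond them ranked 13676 in replicate 2 and 15166 in replicate 3 and was missing from replicate 1.

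**Figure D3:**
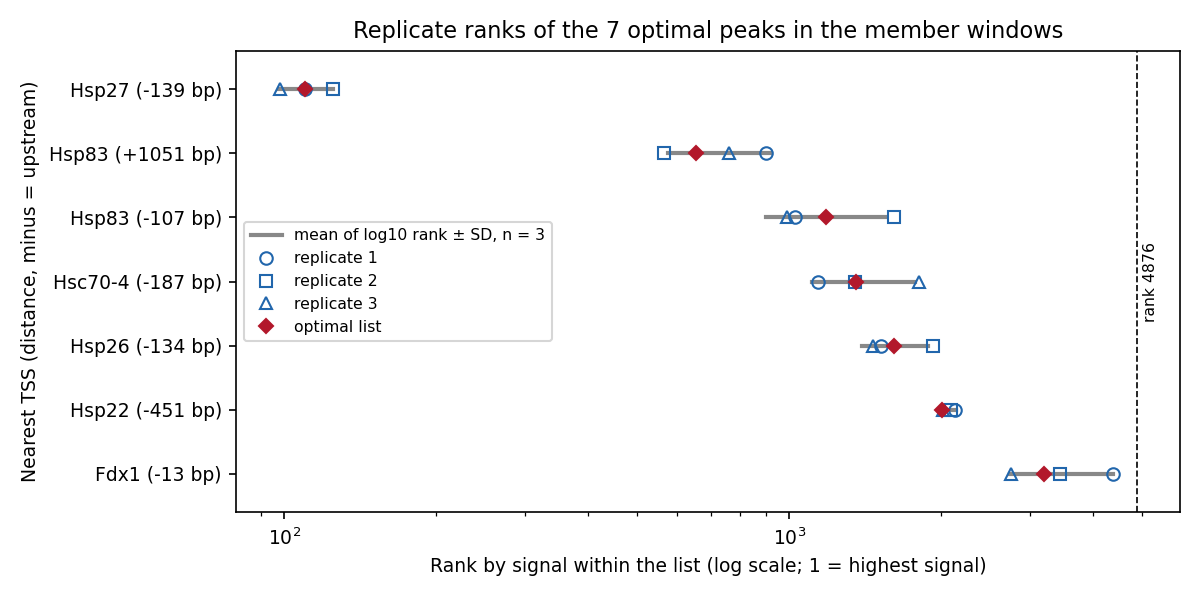
Rank by signal (log scale, 1 is the highest) of the 7 optimal peaks in each replicate and in the optimal list, with bars of the mean of log10 rank ± SD (n = 3). The Hsp27 peak stands at ranks 98 to 125, apart from the others, which lie between 565 and 4380, and the dashed line marks rank 4876.

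The genes without a promoter peak were Hsp23, Hsp67Ba, Hsp67Bc and Hsf. Hsp23 (FBgn0001224, 3L 9381882 to 9382765, plus strand) encodes a cytosolic small heat shock protein and starts 2042 bp from the nearest optimal summit, that of Hsp27. In replicate 3 alone a candidate lay 1115 bp upstream of it, at rank 10777. Its upstream sequence, printed above, has heat shock element pairs starting 168 and 138 bp before the TSS. Hsp67Ba (FBgn0001227, 3L 9377802 to 9379534, minus strand), another gene of the alpha-crystallin family, starts 1973 bp from the Hsp26 summit. A candidate in its coding sequence appeared in replicate 3 alone, at rank 13431. Its 250 upstream bases matched none of the 7 words searched. Hsp67Bc (FBgn0001229, 3L 9371511 to 9372497, minus strand), whose protein takes part in autophagy of misfolded proteins, starts 1049 bp from the Hsp22 summit. These 3 starts had no candidate within 500 bp in any replicate.

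A further optimal peak in the Hsp22 and Hsp67Bc windows belonged by distance to Fdx1, a ferredoxin gene next to the cluster. Its summit at 9371071 (interval 9370863 to 9371278, signal 140.2, rank 3186) lay in an intron of Fdx1, 13 bp upstream of the nearest Fdx1 TSS. The summit was 1426 bp from the TSS of Hsp67Bc and 1860 bp from the outer TSS of Hsp22. This peak was the weakest of the 7, with signals of 35.4, 53.2 and 48.3 and ranks of 4380, 3429 and 2745 (on average 13.2% ± 3.02 of the list, SD, n = 3). The replicates placed its summit within 6 bp, the closest agreement of the set, although their ranks were spread. Its 1860 bp to Hsp22 is just inside the 2 kb limit. The closest summit just outside any window was 2092 bp from Hsp83, at 3199151, nearest to gry.

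Hsf (FBgn0001222, 2R 18130303 to 18134634, minus strand), the gene of the heat shock transcription factor itself, had no summit in its window in the optimal list, the pooled list, replicate 1 or replicate 3. Replicate 2 had 2 candidates there. One ranked 24422 of 27004 and lay in coding sequence 756 bp downstream of the TSS. The other ranked 22281 and lay 588 bp upstream, but only 204 bp from the TSS of Pcl. Both are near the bottom of that list. The next optimal summit was 4432 bp from the gene body, at 18125871 and nearest to stau, so Hsf counted as having a peak only with a flank of 5 kb.

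**Figure D4:**
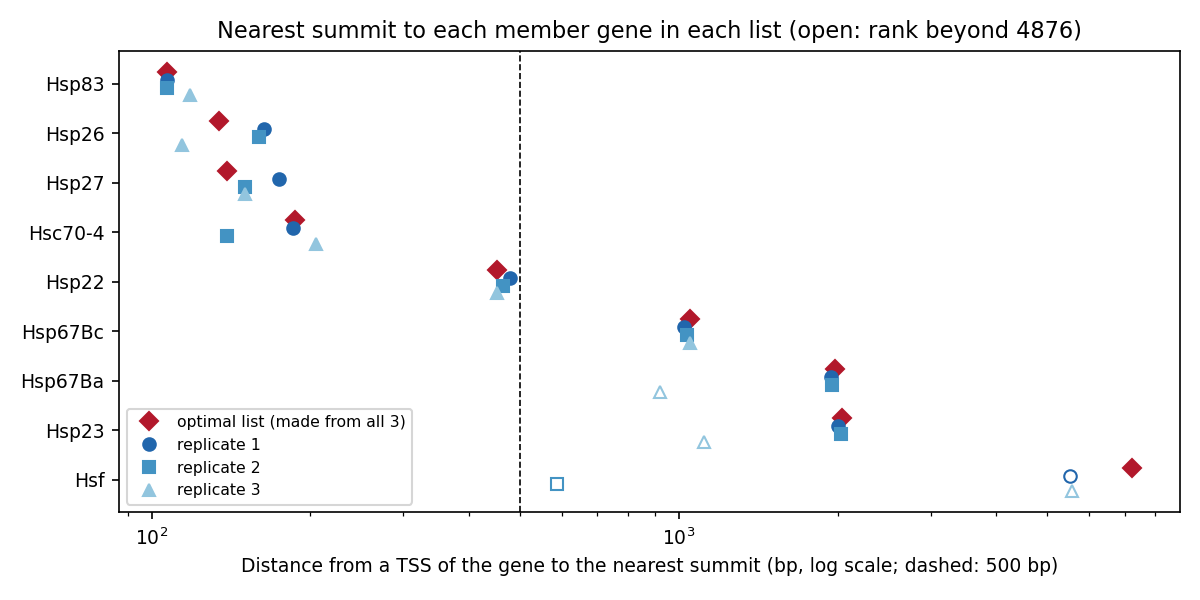
Distance in bp (log scale) from each gene to the nearest summit in the optimal list and each replicate, measured from the TSS of the gene that is nearest to a summit, with open symbols for ranks beyond 4876 and a dashed line at 500 bp. Hsp83, Hsp26, Hsp27, Hsc70-4 and Hsp22 lie left of the line in all lists, and the other 4 genes right of it.

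Replicate ranks varied at these genes about as much as over the whole list, and the median span of replicate summits was smaller. In each replicate all 7 peaks overlapped a peak among the 4876 of highest signal, as did 72.9% of all optimal peaks. Of the 7 peaks, 6 were among the 2438 optimal peaks of highest signal, of which 99.3% overlapped in this way. The Fdx1 peak was among the other 2438, of which 46.4% did. With the 2438 highest-signal peaks of each replicate as the limit, 6 of the 7 still overlapped. The median SD of log10 rank was 0.101 at the 7 peaks and 0.106 over the 4853 optimal peaks with a candidate in every replicate. The median ratio of highest to lowest replicate rank was 1.58 at the 7 peaks and 1.60 over those optimal peaks. Replicate summits spanned a median of 27 bp at the 7 peaks and 46 bp over those optimal peaks. The Hsp26 and Hsc70-4 peaks, at 49 and 66 bp, spanned more than the latter median, and the other peaks less. These comparisons of spread were not matched for signal. The median A+T share around the summit was 67.3% at the 7 peaks and 68.3% over all optimal peaks.

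The pooled list added little. The optimal list is exactly the 4876 highest-signal peaks of the 21656 in the pooled list, so a peak has the same signal and rank in both, and the pooled rank is no separate evidence. A pooled candidate lay in the windows of the same 8 of 9 genes, against 71.7% of protein-coding genes. Beyond the optimal peaks the windows held 3 pooled candidates, at ranks 9424 to 14328. Single replicates had 4 each, at ranks 9430 to 16138 in replicate 1, 7035 to 24422 in replicate 2 and 10777 to 15166 in replicate 3. The best of them, past the end of Hsp83, lay 62 bp from the TSS of CG14966 in replicate 2. The authors name these lists peaks and background, so such candidates need not be binding sites.

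Heat shock element pairs were within 50 bp of 3 of the 7 summits, those at Hsp26, Hsc70-4 and the Hsp83 promoter, against 6.09% of all optimal summits (297 of 4876). In the 250 bases before the outermost TSS, pairs occurred at 4 of 9 genes, Hsp23, Hsp26, Hsp67Bc and Hsc70-4, against 13.2% of protein-coding genes (1844 of 13945). Before their inner TSSs Hsp22 held 2 pairs and Hsp83 held 1. Heat shock genes are known for these elements, so their presence near summits in heat shock promoters is no separate observation about CG4820. Both kinds of mismatch occurred: Hsp27 had the strongest peak and no pair in its 250 bases, and Hsp23 and Hsp67Bc had pairs and no promoter peak. The Hsp27 case depends on that length, since a pair lay beyond the 250 bases, centred 195.5 bp from the summit. The TATA box word TATAAA occurred anywhere in the 250 bases before the outermost TSS of 7 of 9 genes, all but Hsp67Ba and Hsf. The share of protein-coding genes, counted in the same way, was 43% (5998 of 13945). A match started 27 or 28 bp before that TSS at Hsp23, Hsp27, Hsp67Bc and Hsc70-4 only. At Hsp22 and Hsp83 it started 249 and 148 bp before, and at Hsp26 it lay at the summit, 134 bp upstream. Before their inner TSSs, Hsp22 and Hsp26 had a match starting at 28 bp and Hsp83 at 30 bp. TATAAA lay within 50 bp of the Hsp26 and Fdx1 summits and of no other among the 7. It was that near to 1120 of all 4876 optimal summits. The GAGAG word was within 50 bp of none of the 7 summits, against 8.74% of all optimal summits. The word CGATA of BEAF-32 was that near to the Hsp26 summit alone, against 15.2%. The DREF site TATCGATA and the E-box CACGTG were near none, against 1.74% and 0.636%. In the 250 bases before the outermost TSS the DREF site occurred at Hsp83 alone, against 8.00% of protein-coding genes. CGATA occurred there at Hsp22, Hsp23, Hsp26 and Hsp83, against 42.6%, and the E-box at none, against 2.86%. Words were sought on both strands, and a match is a description of sequence only.

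The promoter peaks of the optimal list most like that of Hsp27 in their replicate ranks were those of MFS10, E23 and aay. MFS10, with a signal of 958.7, ranked 125, 111 and 88 in replicates 1, 2 and 3, with its summit 154 bp from the TSS. E23, an ABC transporter gene that responds to ecdysone, had 927.8 and ranks of 103, 106 and 113, at 242 bp. The phosphoserine phosphatase gene aay had 923.4 and ranks of 107, 109 and 118, at 211 bp. Likeness was measured over 3 replicates only, and peaks away from promoters were left out of the search.

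Other chaperone genes were bound about as often as genes in general. Of 45 further genes listed by family 44 were in the annotation, 43 of them protein-coding. An optimal summit lay in the window of 14 of these 43 (32.6%), beside 35.2% of all protein-coding genes, and of 12 of 41 (29.3%) without the pair whose window peaks are ones described above. At a promoter the count was 7 of 43 (16.3%), beside 19.9%. The 6 genes listed as other small heat shock genes had 3 with a window peak and 0 with a promoter peak. They were listed by name, and their protein domains were not checked. Of the 3, 2 are in the 67B cluster, CG4456 and CG4461. The peaks in the windows of CG4456 and CG4461 are the same peaks already given for Hsp22, Hsp26, Hsp67Ba, Hsp67Bc and Fdx1, so they add no site. In the HSP70 and HSP110 family 1 of 12 genes had a peak, Hsc70-5, the mitochondrial HSP70, with a signal of 342.3 and rank 802. The heat-inducible Hsp70 genes are near copies of each other, so their reads may not be assignable, and the sources used here do not say how such reads were handled. The co-chaperones had promoter peaks in 2 of 11, the J-domain genes mrj (564.9, rank 287) and DnaJ-H (334.7, rank 830). The HSP90 and HSP60 families had 2 of 6, Hsp60A of mitochondria (157.8, rank 2721) and Gp93 of the endoplasmic reticulum (131.9, rank 3469). Among the 8 promoter peaks named here, that of Gp93 alone lacked 1 replicate, with support in 2 of 3. The cytosolic chaperonin had 2 of 8, CCT3 (173.8, 430 bp from the TSS) and CCT8 (136.9, 467 bp), but there the nearest TSS was that of CG10324 and of CG30349. The non-coding heat shock RNA lncRNA:Hsromega had a summit 191 bp inside its start (198.5, rank 1969).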

How the data were processed

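ChIP-seq peak lists of 3 biological replicates (1 group, 1 fly line) were read on dm6. Per the deposited README files, the authors derived each replicate's candidates from its alignment and a control, pooled candidates from all 3 alignments, and the optimal list by the irreproducible discovery rate. No source used here names the aligner, the peak caller or the limit applied, and the control was not used here. The deposited signal is the authors' enrichment value per peak, comparable only within a list, so ranks within a list were compared. Mean and SD of rank percentages are over 3 replicates. Depth is unknown, so counting error is not included.

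Summits were read as interval start plus offset. Gene models were those of Ensembl BDGP6.54, release 115, without transposable elements and pseudogenes, and 99.8% of 30593 start codons read ATG in the RefSeq sequence of the same assembly. A peak was supported by a replicate when it overlapped, by at least 1 bp, the 4876 highest-signal peaks of that replicate. The 7 words sought on both strands were the heat shock element pairs GAANNTTC and TTCNNGAA, which overlap in elements of 3 units, the GAGA word GAGAG, the TATA box TATAAA, the DREF site TATCGATA, the word CGATA of BEAF-32, which the DREF site contains, and the E-box CACGTG. No test across genes was made. Genes and lists were chosen with earlier results of these data known. All 9 genes are named, with the nearest gene of each window peak, up to 8 other chaperone genes with a promoter peak, and the 3 promoter peaks closest to the strongest in replicate ranks. Alternatives were other flanks, promoter distances, peak positions, overlap rules and gene assignments, the 2438 highest-signal peaks, shorter genes as background, and leaving out each replicate. The dm3 lists were not used here. The steps were tested on simulated data. Tables were handled with pandas 2.3.3 and NumPy 2.4.6 in Python 3.11.15, and figures drawn with matplotlib 3.10.9.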

Additional observations from a re-analysis of the deposited data

How the results depend on the processing

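The count of genes with an optimal summit in their window was 8 of 9. It became 5 when a summit counted for the gene of the nearest TSS alone, since Hsp23, Hsp67Ba and Hsp67Bc then lost theirs, 7 with a flank of 1 kb (without Hsp23) and 9 with a flank of 5 kb. Interval midpoints and the 2438 highest-signal optimal peaks left it at 8. The share of protein-coding genes with such a peak was 28.8% among genes no longer than the longest of the 9, and 35.2% among all. Promoter peaks were at 5 genes, at 4 with a limit of 250 bp (without Hsp22) and at 5 under the other alternatives. Support by every replicate held for 7 of 7 peaks, for 5 with a reciprocal overlap of 50%, for 6 with the 2438 highest-signal replicate peaks, and for 7 with summits within 100 bp or any candidate. Leaving out each replicate in turn gave 8 to 8 genes with a window peak, 5 to 5 with a promoter peak and 7 to 7 supported peaks. This adds no check, because the optimal list was not rebuilt and all 7 peaks had the support of every replicate, so no other value was possible. No paired analysis was possible because the samples form 1 group. Without read totals, a missing peak at Hsp23, Hsp67Ba, Hsp67Bc or Hsf cannot be told apart from binding below detection, and 9 genes with shared windows give counts and no error.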
